A study of Mus musculus with 8 samples.

Results

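The Fos, Jun and Egr immediate early genes were followed in mouse palm skin after an intradermal injection of PACAP. They comprised Fos, Fosb, Fosl1, Jun, Junb, Egr1, Egr2, Egr3, Atf3 and Ier2, chosen by gene name among the non-control probes of the array. These 10 genes had 10 probes, of 29608 gene names and 39429 probes in all. The study asked how pituitary adenylate cyclase-activating polypeptide (PACAP), a neuropeptide, changes gene expression in skin that bears sweat glands, and whether its receptor PAC1R is needed. Male C57BL/6 mice (WT mice, strain labelled C57BL/6J) and male Adcyap1r1 -/- mice (PAC1R KO mice), all 9 to 10 weeks old, were anaesthetised with midazolam, medetomidine and butorphanol. Each received 5 µL of vehicle, which was saline with 0.1% BSA, or the same volume holding 1e-07 mol/L PACAP, into the footpad. Forepaw skin was taken 30 or 60 min later, so vehicle skin had also been anaesthetised and injected. The deletion in the KO mice is not limited to skin. The study's methods name 6 mice of each genotype, whose skin samples were ground individually. How many of them stand behind an RNA sample, and whether RNA was pooled after grinding, is not given in the sources used here.

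PACAP was set against vehicle in 4 comparisons, 1 for each genotype and time. Each was 1 vehicle RNA sample and 1 PACAP RNA sample, hybridised together on 2 arrays with the dyes Cy3 and Cy5 swapped. A dye swap repeats the same RNA, so each comparison was counted as 1 replicate, and no ratio of a single comparison has an error between animals. The SE values of limma below come from the spread across the 4 comparisons or across RNA samples. The 4 WT arrays shared a slide and the 4 KO arrays shared another, so the effects of genotype and slide cannot be told apart.

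Immediate early genes are transcribed within minutes of a stimulus, without new protein synthesis, through serum response factor at CArG boxes and through CREB at cAMP response elements (CRE). PAC1R couples to adenylate cyclase and phospholipase C, both of which lead to these factors. Fos and Jun proteins pair through leucine zippers to form AP-1, Egr proteins are zinc finger factors that bind GC-rich sites, and Atf3 is a stress-induced partner of the Jun proteins. In skin the same genes also respond to injury, stretch and handling.

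Promoter sequences were printed for genes whose levels differed side by side between samples (Fosb, Atf3 and Egr2), for Fos, which had one of the highest ratios of PACAP over vehicle in WT mice at 30 min, and for Junb, whose ratios stayed near 1. They come from RefSeq gene starts on GRCm38.p6. The promoter set used here held 6 of the 10 genes (Fos, Fosb, Jun, Junb, Egr2 and Atf3), which does not mean that RefSeq lacks the others. Each line gives the 250 bases before the gene start, 5′ to 3′ on the gene's strand, with matches to the motifs searched in capitals. Fos lies on the plus strand at chr12:85473640-85473889, Fosb on the minus strand at chr7:19310046-19310295, Atf3 on the minus strand at chr1:191183334-191183583, Egr2 on the plus strand at chr10:67537619-67537868 (the middle of its 5 listed starts) and Junb on the minus strand at chr8:84978749-84978998.
Fos: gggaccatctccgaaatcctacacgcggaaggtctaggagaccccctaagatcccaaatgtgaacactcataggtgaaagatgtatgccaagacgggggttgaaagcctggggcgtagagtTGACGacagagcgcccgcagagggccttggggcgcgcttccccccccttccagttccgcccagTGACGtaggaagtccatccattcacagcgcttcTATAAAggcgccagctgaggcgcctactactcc
Fosb: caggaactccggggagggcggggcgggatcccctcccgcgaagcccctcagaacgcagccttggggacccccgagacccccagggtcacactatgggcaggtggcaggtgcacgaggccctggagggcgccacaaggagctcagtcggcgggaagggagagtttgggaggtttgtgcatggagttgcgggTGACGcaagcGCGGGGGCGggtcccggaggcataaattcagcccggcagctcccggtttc
Atf3: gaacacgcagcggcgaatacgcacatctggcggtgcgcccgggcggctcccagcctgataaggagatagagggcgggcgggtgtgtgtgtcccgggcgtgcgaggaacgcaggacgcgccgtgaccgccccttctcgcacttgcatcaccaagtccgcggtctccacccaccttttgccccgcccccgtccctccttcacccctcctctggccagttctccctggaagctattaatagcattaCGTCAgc
Egr2: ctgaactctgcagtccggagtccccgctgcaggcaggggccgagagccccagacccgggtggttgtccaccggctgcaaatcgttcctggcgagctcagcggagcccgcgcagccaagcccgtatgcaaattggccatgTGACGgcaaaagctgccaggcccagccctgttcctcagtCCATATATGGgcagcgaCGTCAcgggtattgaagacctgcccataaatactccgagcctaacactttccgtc
Junb: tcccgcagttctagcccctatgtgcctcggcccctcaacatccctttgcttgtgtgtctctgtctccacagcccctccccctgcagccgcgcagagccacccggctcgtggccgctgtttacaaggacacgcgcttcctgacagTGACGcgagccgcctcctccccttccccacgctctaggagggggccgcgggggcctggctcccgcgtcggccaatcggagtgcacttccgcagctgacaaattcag

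The motifs were searched on both strands in windows of 300 bases, from 250 before to 50 after the start. The CRE core TGACG was found in the windows of Fos, Fosb, Atf3, Egr2 and Junb, and in 20.8% of all 32851 windows. In Fos it began at bases -129 and -66, in Fosb at -60, in Atf3 at -7 and in Junb at -106, with the start as base 0. The Egr2 window shown held a CArG box at -72 between CRE cores at -111 and -55, and a CArG box occurred in 1.63% of all windows. TATAAA, found in 13.6% of windows, began at -33 in Fos and at base 0 in Junb, just after the bases shown. Fosb held the EGR site GCGNGGGCG at -50, found in 5.55%. The full CRE TGACGTCA, which contains the core and was present in 1.79% of windows, and the AP-1 site TGANTCA, present in 7.81%, had no match in any of these windows. The Jun window matched none of the motifs. A match describes the letters of the sequence and does not show that a factor binds there.

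The share of spots well above background per array was 78.6% to 94.5% in the red channel (Cy5) and 54.0% to 65.3% in the green (Cy3), and 0 spots were saturated. Palm skin keratinocyte markers were well above background in every RNA sample for 8 of 8 genes, and eccrine gland markers for 7 of 8. The probe of Adcyap1r1, the deleted gene, had log2 levels of 8.27 to 8.76 in WT mice and 7.91 to 8.56 in KO mice, which overlap. Whether this probe lies in the deleted part is not given in the sources used here, so it does not check the labels. All 10 immediate early genes passed the filter of the ratio fits (each array had to show the probe well above background in 1 channel or more), and 9 passed that of the vehicle fits (well above background in at least 1 vehicle sample on both arrays). Egr3 did not pass the second, because it was well above background on 1 of 2 arrays in every RNA sample. Fosl1 was well above background on 1 of 2 arrays in the vehicle sample of WT mice at 30 min, and on both arrays elsewhere, as were the other 8 genes everywhere.

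Fos, the founding member of the AP-1 family, was 1.86-fold as abundant after PACAP as after vehicle in WT mice at 30 min. The arrays with PACAP in Cy5 and in Cy3 gave 1.90-fold and 1.82-fold. Fos had 10 spots per array, which gave 1.83-fold to 1.90-fold when taken singly. In KO mice at 30 min the ratio was 1.16-fold. At 60 min it was 0.877-fold in WT mice and 0.828-fold in KO mice. Every array thus gave a Fos ratio above 1 at 30 min and below 1 at 60 min. Across the 4 comparisons the effect at 60 min differed from that at 30 min by -0.79 ± 0.28 (SE) on the log2 scale, with an adjusted p of 1.00 by limma. Without WT mice at 30 min it was -0.45.

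Egr1, a zinc finger factor induced by growth factors and injury, had the highest ratio of the 10 genes in WT mice at 30 min, 1.94-fold, with 2.14-fold and 1.77-fold on its arrays. Its other ratios were 0.934-fold in KO mice at 30 min, 0.885-fold in WT mice at 60 min and 1.09-fold in KO mice at 60 min. Both arrays of each comparison gave the same direction. The effect in KO against WT mice differed by -0.38 ± 0.38 (SE, log2) for Egr1 and by -0.38 ± 0.39 for Fos, each with an adjusted p of 0.84 by limma. Without WT mice at 30 min these differences turned to 0.19 and 0.16.

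Fosb, which forms AP-1 with Jun proteins like Fos, gave 1.82-fold in WT mice at 30 min (1.76-fold and 1.89-fold by array). Its ratio was 1.24-fold in KO mice at 30 min, 0.777-fold in WT mice at 60 min and 1.06-fold in KO mice at 60 min. Atf3 followed the same course, at 1.78-fold (1.84-fold and 1.73-fold), 1.28-fold, 0.731-fold and 1.08-fold in the same order. Both genes were therefore above 1 on all arrays at 30 min and below 1 on both arrays of WT mice at 60 min. The effect at 60 min against 30 min differed by -0.73 ± 0.29 (SE, log2) for Fosb and by -0.76 ± 0.30 for Atf3, each with an adjusted p of 1.00 by limma. The value was -0.45 for Fosb without WT mice at 30 min and -0.48 for Atf3 without WT mice at 60 min.

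Egr2, an Egr factor known for its role in Schwann cells, was at 1.496-fold in WT mice at 30 min, with 1.45-fold and 1.54-fold on its arrays. The ratio was 1.03-fold in KO mice at 30 min, 1.13-fold in WT mice at 60 min and 1.20-fold in KO mice at 60 min. It was the 1 gene of the 10 whose mean ratio lay above 1 in all 4 comparisons, although its arrays disagreed in KO mice at 30 min, at 0.934-fold and 1.14-fold. The mean of the 4 was 0.27 ± 0.11 (SE, log2), with an adjusted p of 1.00 by limma, and 0.16 without WT mice at 30 min. Jun, the main partner of Fos, gave 1.41-fold in WT mice at 30 min, but its arrays differed widely at 1.20-fold and 1.65-fold. Its ratio was 0.912-fold in KO mice at 30 min, 0.837-fold in WT mice at 60 min and 1.21-fold in KO mice at 60 min.

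Junb, Ier2, Fosl1 and Egr3 stayed closer to 1. The ratios of Junb, a Jun protein that often limits Jun activity, lay between 0.917-fold and 1.09-fold in the 4 comparisons. Those of Ier2, an early nuclear regulator, ranged from 0.903-fold to 1.13-fold. Fosl1, which encodes Fra-1 and usually follows Fos, ranged from 0.982-fold to 1.32-fold, and the highest value was from KO mice at 60 min, with 1.49-fold and 1.17-fold on its arrays. Egr3, a relative of Egr1, gave opposite signs on its arrays or a ratio set to 1 by the software, and its means of 0.847-fold to 1.20-fold carry no direction.

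**Figure D1:**
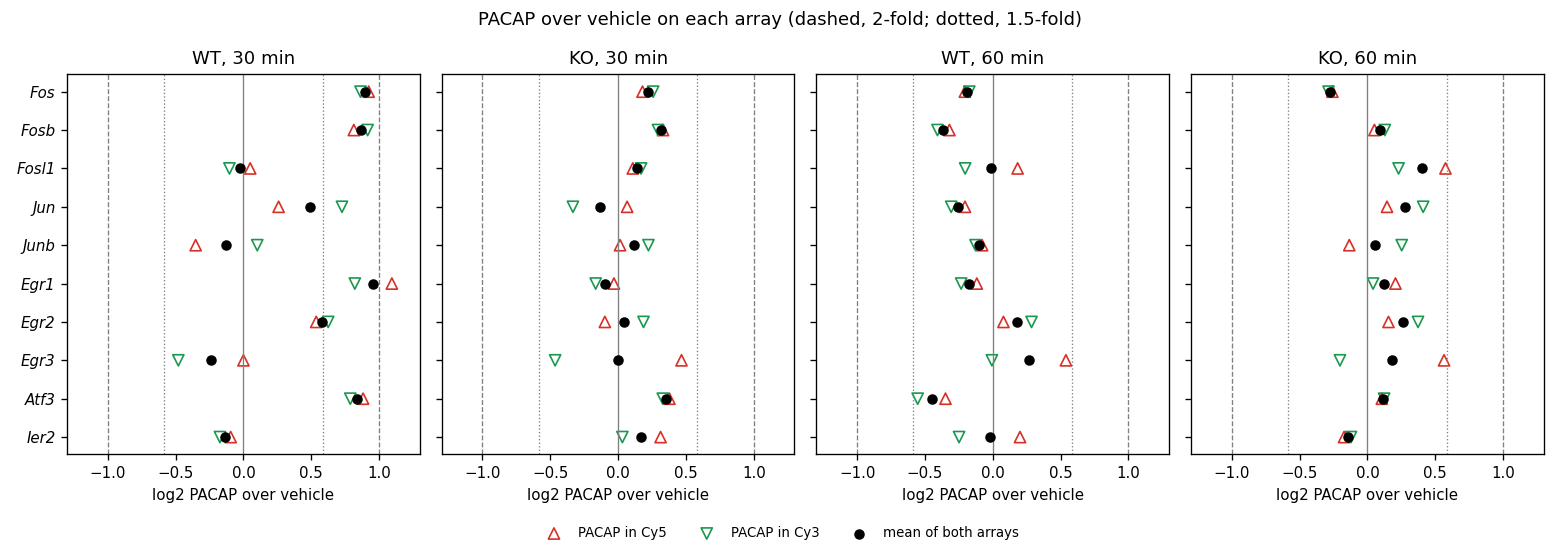
Log2 ratio of PACAP over vehicle (x axis) for the 10 genes in each of the 4 comparisons, with triangles for the single arrays and black points for their mean. Fos, Fosb, Egr1 and Atf3 lie between the 1.5-fold and 2-fold lines in WT mice at 30 min (1.78-fold to 1.94-fold), and no mean lies past 1.5-fold in the other comparisons.

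A probe was counted as changed if its mean ratio reached 2.0-fold or fell to 0.5-fold, both arrays had that direction, and the p of the extraction software was below 0.01 on each. That p speaks of the spots of 1 array and not of animals. In WT mice at 30 min, 0 of the 10 genes were counted higher or lower, beside 0.329% and 0.122% of the 30351 probes tested. In KO mice at 30 min there were likewise 0, beside 0.774% higher and 0.138% lower. At 60 min the count was 0 in WT mice, beside 0.741% and 0.125%, and 0 in KO mice, beside 0.168% and 0.185%. A lower threshold of 1.5-fold counted Fos, Fosb, Egr1 and Atf3 as higher in WT mice at 30 min, 4 of 10 beside 1.47% of all probes, and 0 as lower beside 0.336%. Egr2, at 1.496-fold, missed both the fold and the p, which was 0.011 on 1 array. At 1.5-fold no other comparison counted any of the 10 genes. There the share of all probes counted as higher was 2% in KO mice at 30 min, 0.955% in WT mice at 60 min and 0.428% in KO mice at 60 min, and as lower 1.52%, 0.198% and 0.287%.

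The median of the 10 genes was 1.45-fold in WT mice at 30 min, where all tested probes had a median of 0.967-fold. It was 1.09-fold in KO mice at 30 min beside 0.991-fold, 0.908-fold in WT mice at 60 min beside 0.993-fold, and 1.09-fold in KO mice at 60 min beside 1.00-fold. Ratios above 1 were seen for 6, 8, 2 and 8 of the 10 genes in that order. All but the first of these counts include Egr3, whose means carry no direction. The share of all tested probes above 1 was not counted, and their medians were the 0.967-fold to 1.00-fold given above. In WT mice at 30 min a ratio as high as that of Egr1 was reached by 0.666% of the tested probes, as high as that of Fos by 0.853%, of Fosb by 0.965% and of Atf3 by 1.12%.

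**Figure D2:**
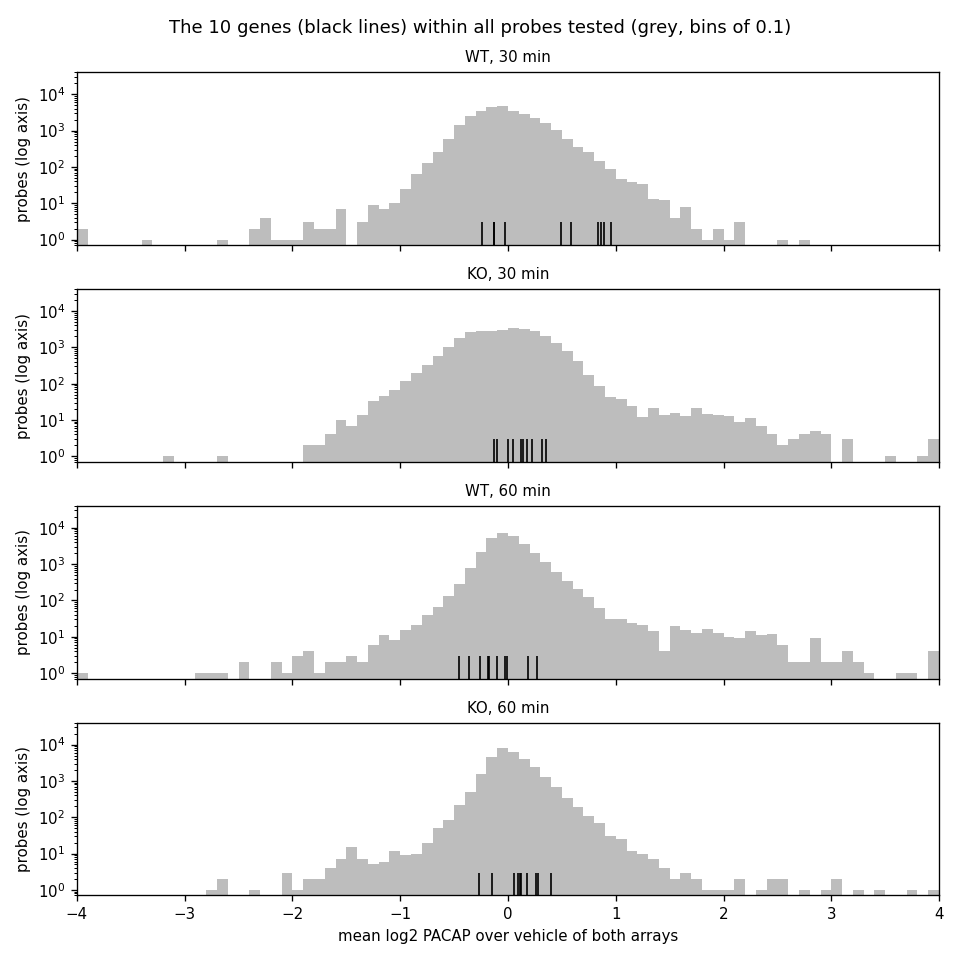
Number of probes (log axis) by mean log2 ratio of PACAP over vehicle in bins of 0.1, for the 30351 tested probes in grey, with values beyond 4 placed in the end bins, and the 10 genes as black lines. In WT mice at 30 min 6 of the lines lie above 0, and in WT mice at 60 min 8 lie below it.

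limma fits over all probes called 0 of the 10 genes for an effect shared by the 4 comparisons, for KO against WT mice, and for 60 against 30 min (adjusted p below 0.05, called for 0% of 30351 probes in each). At an unadjusted p under 0.05 there were 0, 0 and 3 of the 10 genes, beside 678, 972 and 483 probes (2.23%, 3.20% and 1.59%). The 3 were Fos, Fosb and Atf3, with unadjusted p-values of 0.0342, 0.0493 and 0.0448.

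Markers of other tissues also differed within these pairs of samples. In WT mice at 30 min the 12 of 12 skeletal muscle markers, all well above background in every RNA sample, had ratios above 1, with a median log2 ratio of 0.79 and a mean log2 level of 12.50 after vehicle and 13.35 after PACAP. Of these, 3 passed the 2-fold rule by any of their probes, and 11 the 1.5-fold rule by the brightest probe of each gene. Fibroblast markers were above 1 for 6 of 6 genes, with a median log2 ratio of 0.45 and mean levels of 13.39 and 13.87. In KO mice at 30 min the muscle markers went the other way, with 1 of 12 above 1 and a median of -0.77. There Fos, Fosb and Atf3 were above 1 on both arrays, while Egr1 was below 1 on both, at 0.979-fold and 0.892-fold, and Jun had a mean of 0.912-fold. Palm skin keratinocyte markers were below 1 for 8 of 8 genes in the same comparison (median -0.79), and fibroblast markers had a median of -0.57. At 60 min the muscle medians were -0.04 in WT mice and 0.02 in KO mice. Hair shaft markers had median log2 ratios of 0.17 and 1.43 in WT and KO mice at 30 min and 2.11 and -0.48 at 60 min, and wounded epidermis markers -0.12, 0.81, 1.11 and 1.45 in that order. Hepatocyte markers, of which 1 of 6 was well above background in every RNA sample, had -2.31 in WT mice at 60 min. Red blood cell markers, of which 3 of 4 were well above background in every RNA sample, had median log2 ratios of 0.45 and 0.24 in WT and KO mice at 30 min and -0.86 and 0.44 at 60 min. Those of the 10 genes were 0.54, 0.13, -0.14 and 0.12 in that order. The signs matched in each comparison, but this list was 1 of 16 marker lists examined, and the sizes differed. In bulk skin a change in the number of cells and a change in RNA per cell cannot be told apart. The part of these tissues in the ratios of the immediate early genes was not tested.

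**Figure D3:**
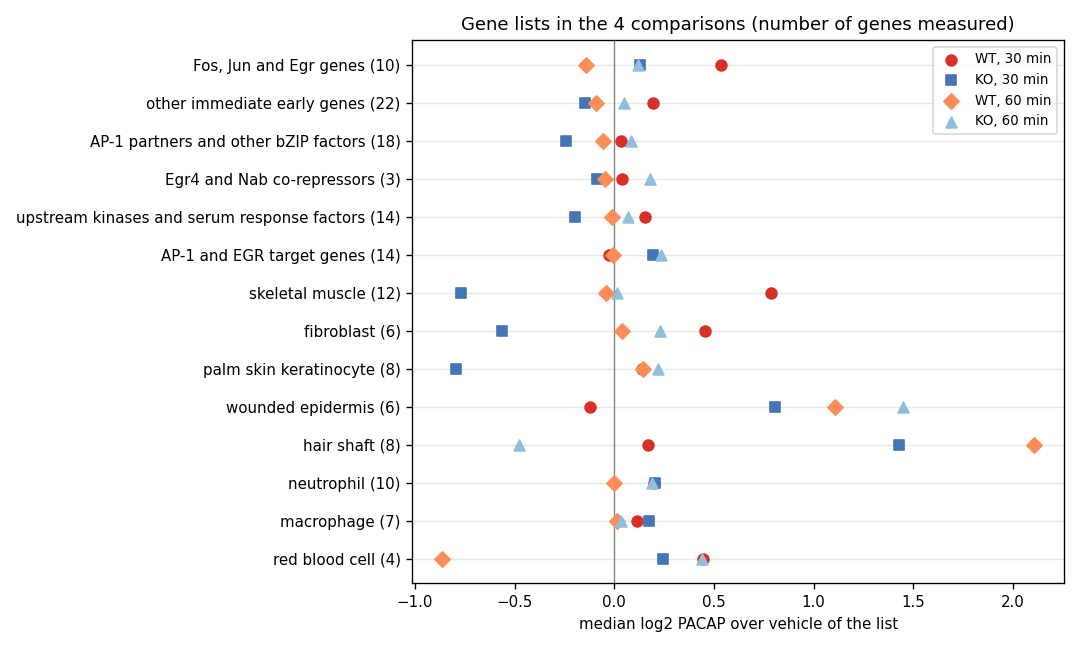
Median log2 ratio of PACAP over vehicle (x axis) of the 10 genes, of 5 lists of related genes and of 8 of the marker lists, with 1 symbol per comparison. The skeletal muscle list has its highest median (0.79) in WT mice at 30 min, where the 10 genes have theirs (0.54), and its lowest (-0.77) in KO mice at 30 min.

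The log2 levels of each gene were then compared over the 8 RNA samples. These are log2 intensities after background correction with an offset of 50, which draws in the differences of dim probes, and normalisation within and between arrays. Their error is that of the arrays alone, as the SD of 16 channel values after the RNA sample and the dye were taken away. It ranged from 0.04 for Fos to 0.22 for Jun. Levels of 1 gene that differed by less than 2 such SDs were taken as not told apart, and the levels of different probes were not compared with each other.

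Fos levels in vehicle skin were 11.59 in WT mice at 30 min, 12.36 in KO mice at 30 min, 12.59 in WT mice at 60 min and 11.20 in KO mice at 60 min. After PACAP they were 12.47, 12.58, 12.39 and 10.94 in the same order. The vehicle sample of WT mice at 30 min and both samples of KO mice at 60 min were thus low, and the other 5 lay between 12.36 and 12.59. The PACAP sample of WT mice at 30 min was 0.12 above the vehicle sample of KO mice at 30 min, which lay on the other slide. At 60 min the vehicle samples of KO and WT mice differed by -1.39 (log2), more than PACAP and vehicle differed in any comparison.

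Egr1 levels had a similar course, with 11.69, 12.52, 12.38 and 11.68 in vehicle skin of WT and KO mice at 30 min and WT and KO mice at 60 min. After PACAP they were 12.64, 12.43, 12.24 and 11.82. Again the vehicle sample of WT mice at 30 min was low together with KO mice at 60 min, and the PACAP sample of WT mice at 30 min and the vehicle sample of KO mice at 30 min were not told apart. Over the 8 RNA samples the levels of Fos and Egr1 had a Pearson r of 0.89 and a Spearman rho of 0.64, given as a description, since the samples of a pair share arrays.

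Atf3 levels in vehicle skin were 8.75 in WT mice and 9.13 in KO mice at 30 min, against 10.76 and 10.35 at 60 min. After PACAP they were 9.46 and 9.52 at 30 min and 10.45 and 10.35 at 60 min. All 4 samples at 60 min exceeded all 4 at 30 min. In vehicle skin the level at 60 min was higher by 1.61 ± 0.21 (SE, log2), with an adjusted p of 0.12 by limma.

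Fosb levels in vehicle skin were 9.16 in WT mice and 9.45 in KO mice at 30 min, against 10.70 and 10.12 at 60 min. Its PACAP samples had 9.99 and 9.78 at 30 min and 10.36 and 10.25 at 60 min. The PACAP sample of WT mice at 30 min and the vehicle sample of KO mice at 60 min were not told apart, so the times were not fully separate for this gene. The difference in vehicle skin was 1.11 ± 0.23 (SE, log2; adjusted p = 0.12 by limma).

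Egr2 levels in vehicle skin were 8.39 and 8.69 at 30 min and 9.49 and 9.496 at 60 min, with WT mice first. The PACAP samples had 8.89 and 8.75 at 30 min and 9.70 and 9.74 at 60 min. The difference between the times in vehicle skin was 0.95 ± 0.11 (SE, log2; adjusted p = 0.12 by limma), and WT and KO mice at 60 min were not told apart. Fosl1 in vehicle skin was also higher at 60 min, with 6.51 and 6.46 at 30 min, 6.84 and 6.91 at 60 min, and a difference of 0.39 ± 0.09 (SE, log2; adjusted p = 0.12 by limma). It was 0.91 with quantile-normalised processed signals, without the offset.

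In vehicle skin, levels at 60 min lay above both levels at 30 min for 4 of the 9 genes that passed the filter (Fosb, Fosl1, Egr2 and Atf3), beside 22.2% of 24903 probes. Levels at 60 min lay below for 0 of 9, beside 27.8%. In the PACAP samples the same 4 genes lay above, beside 15.2%, and Fos and Egr1 lay below, 2 of 9 beside 16.6%. These counts use the order of the levels alone, and the Fos levels of the PACAP samples of WT mice were not told apart between the times. The limma fit of vehicle levels called 0 of the 9 genes for time, with 0% of 24903 probes called. At an unadjusted p under 0.05 it held 5 of the 9 and 6304 probes, which were 25.3% of those tested. The fifth gene was Jun, whose level at 60 min was lower by a log2 difference of -0.36 ± 0.10 (SE; adjusted p = 0.14). With 4 vehicle samples and both genotype and time in the model, 1 residual degree of freedom was left. Over all 8 RNA samples, with each pair as a random block, the difference between the times was 1.26 for Atf3 (adjusted p = 0.0269), 0.93 for Egr2 (adjusted p = 0.0127) and 0.45 for Fosl1 (adjusted p = 0.0336) by limma. That fit called 6.69% of 26354 probes as higher and 4.1% as lower, and Fosb was not among the calls. Time and genotype varied only between the 4 pairs, but the fit took the samples of a pair as added replicates of both. Its adjusted p-values can therefore be too small. In a fit of the 4 PACAP samples alone the differences were 0.90 for Atf3 (adjusted p = 0.563), 0.90 for Egr2 (adjusted p = 0.58), 0.52 for Fosl1 and 0.42 for Fosb (adjusted p = 0.916 for both) by limma.

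Junb and Ier2 differed by genotype more than by time. Junb levels in vehicle skin were 7.73 and 7.89 in WT mice at 30 and 60 min and 7.13 and 7.38 in KO mice. After PACAP they were 7.69 and 7.84 in WT mice and 7.18 and 7.37 in KO mice, so every KO sample lay below every WT sample. The difference in vehicle skin was -0.55 ± 0.09 (SE, log2; adjusted p = 0.32 by limma), and -0.98 with quantile-normalised processed signals.

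Ier2 levels in vehicle skin were 8.89 and 9.15 in WT mice at 30 and 60 min and 8.36 and 8.40 in KO mice. The PACAP samples gave 8.79 and 9.18 in WT mice and 8.52 and 8.31 in KO mice, without overlap. The vehicle difference was -0.64 ± 0.10 (SE, log2; adjusted p = 0.32 by limma). Jun levels in vehicle skin were 11.13 and 10.86 in WT mice and 10.74 and 10.29 in KO mice, a difference of -0.48 ± 0.10 (SE; adjusted p = 0.32 by limma), with 0 of 7 neighbouring levels told apart by the SD of the arrays.

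KO levels lay below both WT levels in vehicle skin for 3 of the 9 genes (Jun, Junb and Ier2), beside 18.3% of 24903 probes, and above for 0 of 9, beside 17.6%. The same 3 genes lay below in the PACAP samples, beside 21.3%, and 0 lay above, beside 19.5%. These counts use the order of the levels alone. The highest KO and the lowest WT level of Jun were not told apart, in vehicle skin or after PACAP. limma called 0 of the 9 genes for genotype in vehicle skin, with 0% of probes called, while 3 of the 9 and 3554 probes (14.3%) had an unadjusted p under 0.05. Over all 8 RNA samples the difference was -0.52 for Junb (adjusted p = 0.0343) and -0.60 for Ier2 (adjusted p = 0.0468) by limma, in a fit that called 1.76% of probes as lower and 1.67% as higher in KO mice. This fit also took the samples of a pair as added replicates of genotype, so its adjusted p-values can be too small. In a fit of the 4 PACAP samples alone it was -0.49 for Junb and -0.57 for Ier2, each with an adjusted p of 0.706 by limma. These differences are also differences between slides. Egr3 levels lay between 6.04 and 6.18 in all RNA samples.

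**Figure D4:**
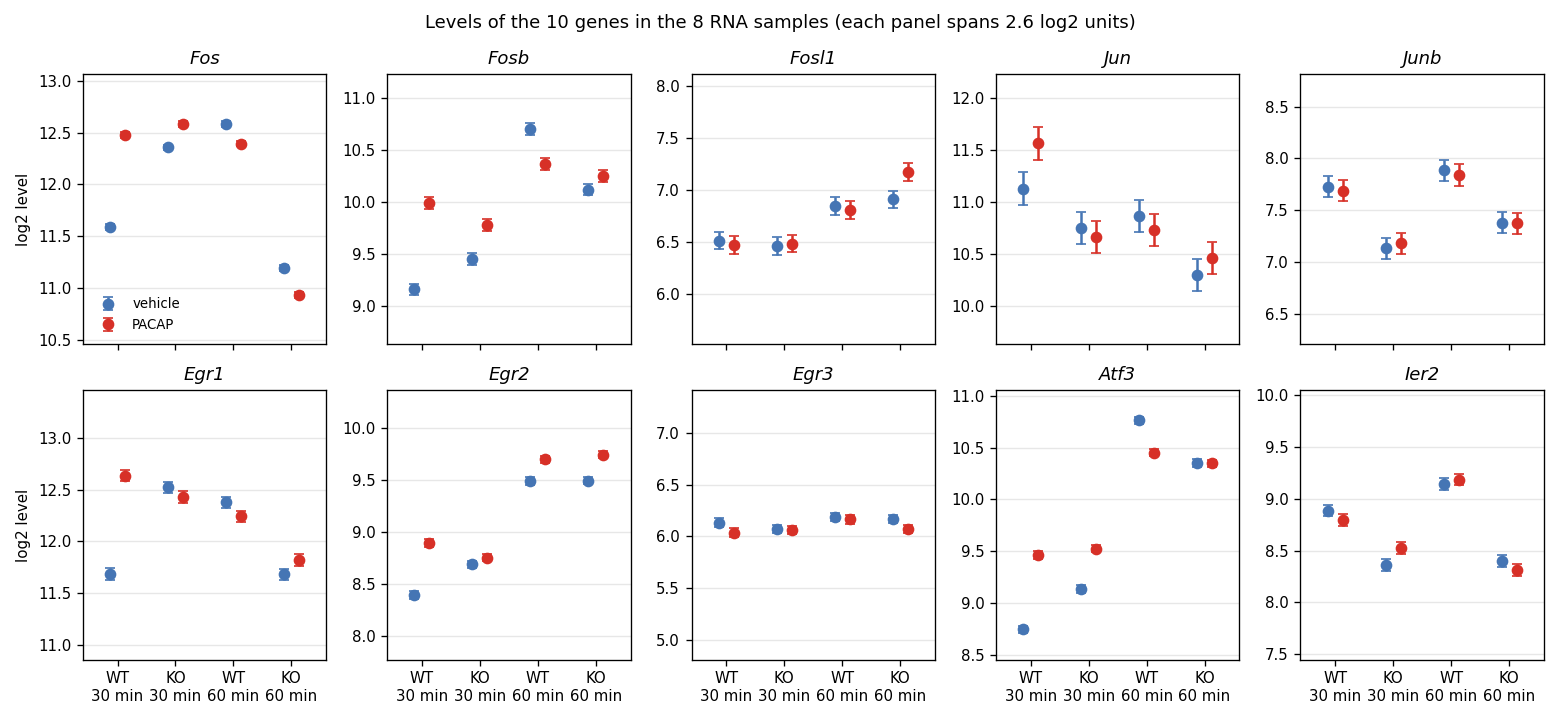
Log2 level (y axis) of each gene in the 8 RNA samples, blue for vehicle and red for PACAP, with bars for the standard error from the arrays. Each panel has its own range of the same width. Atf3 and Egr2 are higher at 60 than at 30 min in every sample, Fosb is so in vehicle skin, Fos and Egr1 are low in the vehicle sample of WT mice at 30 min (11.59 and 11.69) and in KO mice at 60 min, and Junb and Ier2 are lower in KO mice.

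The 10 genes did not share 1 pattern over the RNA samples. Fosb and Atf3 had a Pearson r of 0.96 over the 8 RNA samples, Egr2 and Atf3 0.95, Egr2 and Fosl1 0.89, and Junb and Ier2 0.91. Fos and Atf3 had -0.10, and Fos and Fosl1 -0.64. Each of these values describes 8 samples that share arrays and slides in part.

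**Figure D5:**
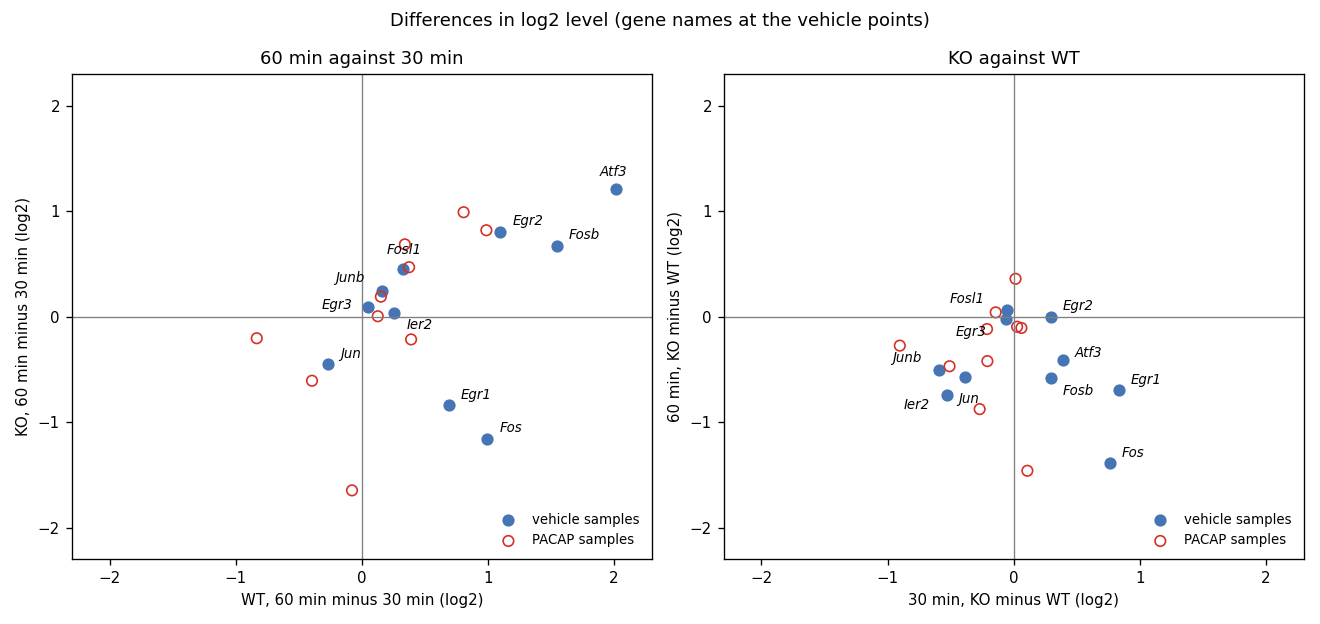
Differences in log2 level of the 10 genes, at left 60 min minus 30 min in WT mice (x axis) against KO mice (y axis), and at right KO minus WT mice at 30 min (x axis) against 60 min (y axis), for vehicle samples (filled) and PACAP samples (open). Atf3 (2.02 and 1.21), Fosb and Egr2 lie at the upper right of the left plot, where Fos (1.00 and -1.16) and Egr1 have opposite signs in WT and KO mice.

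Fos and Egr1 in vehicle skin differed between 30 and 60 min in opposite directions in the genotypes. The log2 difference of 60 min minus 30 min was 1.00 for Fos in WT mice and -1.16 in KO mice, and 0.69 and -0.84 for Egr1. Over both genotypes the differences were -0.08 ± 0.53 (SE) for Fos and -0.07 ± 0.38 for Egr1, with adjusted p-values of 0.94 and 0.92 by limma. Whether the genotypes differed in this was not tested.

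The mean of the 10 genes, each centred on its own mean, was lowest in the vehicle sample of WT mice at 30 min (-0.30, log2) and highest in the vehicle sample of WT mice at 60 min (0.38). Among 365 other genes that were well above background in all samples and varied with an SD of at least 0.5, the profiles most like it over the 8 RNA samples were those of Lrrc30 (Pearson r = 0.85), Myl2 (0.83), Ppp1r3c (0.82), Trim63 (0.79), Serpina1e (0.78), Serpina1c (0.75), an unnamed probe, Ccl2 (0.73), Gsta3 (0.73) and Cxcl1 (0.72). Myl2 is a myosin light chain of slow and cardiac muscle, and Trim63 is a muscle ubiquitin ligase. Serpina1e and Serpina1c encode protease inhibitors made mainly by the liver. Ccl2 and Cxcl1 are chemokines that attract monocytes and neutrophils. Mean log2 levels of the muscle markers in vehicle skin were 12.50 and 12.99 in WT and KO mice at 30 min, and 13.09 and 12.84 at 60 min. In the PACAP samples they were 13.35 and 12.26 at 30 min, and 13.05 and 12.97 at 60 min. The muscle levels were thus highest and lowest in PACAP samples at 30 min, unlike the mean of the 10 genes. Hepatocyte markers had their highest mean level in the vehicle sample of WT mice at 60 min, at 7.65 against 6.38 to 6.66 in the other RNA samples. Red blood cell markers were also highest there, at 11.13 against 10.06 to 10.75. The part of these tissues in the levels was not tested.

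Related genes were examined in 5 lists with 71 genes. Of 22 other immediate early genes, 13 had ratios above 1 in WT mice at 30 min (median 1.14-fold), and 7, 6 and 16 had them in KO mice at 30 min, WT mice at 60 min and KO mice at 60 min. None passed the 2-fold rule. Klf4, a factor of the differentiating epidermis, had the widest range, from 1.62-fold in WT mice to 0.616-fold in KO mice at 30 min. Klf2, a factor of endothelium and lymphocytes, was at 1.43-fold and 0.856-fold in the same samples and 0.687-fold in WT mice at 60 min.

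Among 18 AP-1 partners and other bZIP factors, 0 passed the 2-fold rule, and the widest ranges were those of Maf (0.744-fold to 1.41-fold) and Batf3 (0.712-fold to 1.31-fold). Nab1, a co-repressor of Egr proteins, was at 1.53-fold in WT mice and 0.703-fold in KO mice at 30 min, and Egr4 was well above background on both arrays in 0 of the 8 RNA samples. Of 14 upstream kinases and serum response factors, 0 passed the rule, and 12 had ratios above 1 in WT mice at 30 min against 1 in KO mice. Elk1, a partner of serum response factor, was at 1.37-fold and 0.580-fold there, and the kinase Mapk8 ranged from 0.779-fold to 1.74-fold.

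Of 14 genes known as AP-1 or EGR targets, 4 passed the 2-fold rule as higher in KO mice at 30 min beside 0.774% of probes, 1 in KO mice at 60 min beside 0.168%, and 0 in WT mice at either time. At 30 min these were Mmp13, Mmp10 (3.77-fold), Timp1 (3.499-fold) and Mmp3 (2.52-fold), which encode matrix metalloproteinases and their inhibitor. Mmp13 was well above background on both arrays in 3 of the 8 RNA samples and on 1 of 2 arrays in that vehicle sample, so its ratio of 14.0-fold describes a rise from near background and not an exact size. Its log2 levels, drawn in by the offset, were 6.24 after vehicle and 7.88 after PACAP. It was also the 1 counted in KO mice at 60 min (2.09-fold), and it was at 1.71-fold in WT mice at 60 min, with the same limit. In WT mice at 30 min Mmp10, Timp1 and Mmp3, which were well above background in all 8 RNA samples, were between 0.877-fold and 0.933-fold. Wounded epidermis markers had a median log2 ratio of 0.81 in KO mice at 30 min and 1.45 at 60 min beside these values, and their part was not tested. limma called 0 of the 114 probes of the 71 genes in the 3 ratio fits, with 3, 8 and 0 at an unadjusted p under 0.05 for the shared effect, KO against WT mice and 60 against 30 min, beside 2.23%, 3.20% and 1.59% of all 30351 probes.

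Probe positions are those of the array's design on mm9. The Fos probe lay at chr12:86817900-86817959, Fosb at chr7:19888168-19888227, Fosl1 at chr19:5455496-5455555, Jun at chr4:94716928-94716987 and Junb at chr8:87501881-87501940. The Egr1 probe lay at chr18:35024395-35024454, Egr2 at chr10:67004798-67004857, Egr3 at chr14:70479222-70479281, Atf3 at chr1:192994547-192994606 and Ier2 at chr8:87186214-87186273. Each gene had 1 probe of its own, and exon or UTR annotation of mm9 was not used here.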

How the data were processed

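RNA of forepaw skin from 8 samples was hybridised on 8 Agilent mouse arrays with 2 colours. Spot values were taken by the authors with Agilent Feature Extraction (12.0.3.1 by the file headers, 11.0.1.1 by the submitters' processing notes). The study's methods name an earlier version than either. The deposited log10 ratio of a spot is red over green after LOWESS normalization within its array by the authors' software, which set between 13.4% and 25.0% of them to 0. The deposited p-value of a spot comes from that software's error model. The deposited intensity values hold mean, background and processed signals per channel. The series matrix holds the log10 of processed red over green and equals the scanner files within 5e-10.

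Outlier spots and control spots were left out. Ratios were oriented as PACAP over vehicle, converted to log2 and averaged over spots and over the dye swap, since arrays of a swap correlated at -0.54 to -0.32 after orientation, a dye effect that the mean cancels. Levels used normexp with an offset of 50, loess and Aquantile. Fits used limma 3.58.1 in R 4.3.3 (lmFit, eBayes, Benjamini-Hochberg), on 30351 probes for ratios and 24903 for vehicle levels. Python 3.11.15 was used otherwise. The number of arrays limits the precision. The counting rule, the limma fit of the shared effect and that of vehicle levels between the times were tested on simulated data, and the other steps were not. The genes named are the 10 immediate early genes, listed related genes past the counting rule or called by limma, the 2 with the widest range in each list, and the 10 of the most similar profile. The members and lists were chosen with earlier results of these data known. Older gene symbols were updated through RefSeq names. Alternatives were other p filters and fold thresholds, normexp and loess ratios, median centring, the series matrix ratios, outlier spots included, each array alone, other filters and left-out samples, other model terms, all 8 RNA samples with the pair as a random block, PACAP samples alone and quantile normalization.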

Additional observations from a re-analysis of the deposited data

Results flagged for a closer look

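Fos, Fosl1 and Junb had PACAP effects on opposite sides of 0 in all comparisons of one kind and all of another. Fos was above 0 in both comparisons at 30 min and below 0 in both at 60 min, a difference of -0.79 ± 0.28 (SE, log2; unadjusted p = 0.0342, adjusted p = 1.00 by limma). Fosl1 was below 0 in both comparisons of WT mice and above 0 in both of KO mice, a difference of 0.29 ± 0.20 (adjusted p = 0.839 by limma), although its arrays disagreed in sign in both comparisons of WT mice. Junb was likewise below 0 in WT mice and above 0 in KO mice, by 0.20 ± 0.19 (adjusted p = 0.839 by limma), with arrays of opposite sign in WT mice at 30 min and KO mice at 60 min. With normexp and loess its ratio in KO mice at 60 min was 0.994-fold, so the pattern of Junb did not hold there.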

How the results depend on the processing

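The count of the 10 genes past the 2-fold rule stayed at 0 in every comparison under all alternatives but those named next. In WT mice at 30 min it was 4 at 1.5-fold, and between 0 and 1 when 1 array was left out, where the array with PACAP in Cy5 alone counted Egr1. Of 280 ratios of single genes under the alternatives, 16 changed direction. Among the 28 that belong to the 4 ratios past 1.5-fold, 0 did. The limma counts of called genes stayed at 0 except with all 8 RNA samples, where time called 3 and genotype called 2. That fit took the samples of a pair as added replicates of time and genotype. Without the comparison of WT mice at 30 min, the difference of KO against WT mice reversed to 0.16 for Fos and 0.19 for Egr1, and that of 60 against 30 min reversed to 0.072 for Egr1, so these directions rest on that comparison. With each comparison left out in turn, these values ranged from -0.92 to 0.16, from -0.95 to 0.19 and from -0.98 to 0.072. Without 1 vehicle sample, the vehicle difference between the times ranged from 1.21 to 2.02 for Atf3, 0.81 to 1.0996 for Egr2 and 0.67 to 1.55 for Fosb, with no test.

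Over all probes the shared effect called 0, but 62 with genotype and time in the model, 2118 and 2318 on single arrays, which keep the dye effect, and 1 without WT mice at 30 min. KO against WT mice called 0, but 17 with both terms, and 170 and 83 without WT mice at 30 or 60 min. The effect at 60 against 30 min called 0, but 2 with both terms and 14 without KO mice at 60 min. Vehicle levels called 0, but 2845 for time and 903 for genotype with all 8 RNA samples. The cause was not tested. No paired analysis was possible by replicate number, because these numbers mark the dye orientations of the same RNA pair. The pairing of vehicle and PACAP samples on an array entered every ratio, and the fit of all 8 RNA samples as a random block.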
